A study of Mus musculus with 18 samples.

Results

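The genes described here are 42 genes of DNA replication, chosen by name as the proteins that mark and open replication origins, that work at the fork, and that the E2F and cyclin E step uses to start S phase. All 42 were rows of the count table, which held 11243 genes. The genes were grouped into 11 roles, from origin recognition to cyclin E and E2F. They were measured in RAW264.7 cells, an established mouse macrophage line that divides in culture, under 3 treatments. Control cells received vehicle. The second treatment was LPS, a bacterial cell wall component that activates macrophages, at 500 ng/mL for 6 h. The third was the same LPS that followed 15 min of torin1, which blocks the kinase mTOR, at 100 nM, so that torin1 was seen on top of LPS and never alone. Each treatment was made in 3 independent experiments, and each of the 9 lysates gave one library of total mRNA and one of mRNA from heavy polysomes, 18 in all.

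A replication origin is first bound by the origin recognition complex. CDC6 and CDT1 then load the ring-shaped MCM helicase onto it, a step called licensing. At the start of S phase, CDC45 and the GINS complex join the helicase and the DNA is unwound, DNA polymerase alpha-primase lays down primers, and polymerases delta and epsilon copy the strands while held to the DNA by the sliding clamp PCNA. The E2F transcription factors drive many of these genes, and cyclin E with its kinase acts upstream of them.

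Total counts per library lay between 27800983 and 47725557, and the counts of the 42 genes lay between 87 for E2f2 and 23228 for Mcm5 in a library. Tnf, Il1b and Ptgs2, which LPS induces, rose with LPS in both RNA types. All 8 macrophage markers were in the table, and 4 rose and 1 fell in total mRNA with LPS, beside 32.1% and 34.2% of all genes. None of 5 T and B cell markers and 1 of 4 fibroblast markers were among the genes in the table. Levels are given as CPM, counts scaled by TMM to a common library size, a scaling within an RNA type that assumes most genes do not change. When libraries were scaled to their totals alone, the median log2 change of all genes moved from −0.02 to −0.38 for total mRNA with LPS, and the share of called genes that were higher moved from 48.4% to 19.8%. The median of the 42 genes then was −1.53. Changes are given for TMM scaling, and rises smaller than this shift depend on it. In these bulk samples, fewer cells in a state and less RNA per cell cannot be told apart.

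The windows that RefSeq gives for the start of these genes, 250 bases before to 50 after it, are shown for 5 genes of the helicase, of licensing and of E2F, and for Pola2, which differed from the others with LPS. All are on GRCm38.p6 and are written 5′ to 3′ on the strand of the gene. Capitals mark matches to TTTGGCGC, TTTCCCGC, TTTGCCGC or TTTCGCGC, words of the E2F site, on either strand.

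Mcm3 (chr1:20820263-20820562, minus strand): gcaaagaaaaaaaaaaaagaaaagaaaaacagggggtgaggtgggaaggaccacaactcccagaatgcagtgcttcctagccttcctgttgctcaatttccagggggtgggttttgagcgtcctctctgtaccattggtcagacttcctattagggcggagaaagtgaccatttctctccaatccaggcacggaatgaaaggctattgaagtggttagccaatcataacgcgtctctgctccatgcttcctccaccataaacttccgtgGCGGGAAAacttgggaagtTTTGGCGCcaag
Mcm5 (chr8:75109259-75109558, plus strand): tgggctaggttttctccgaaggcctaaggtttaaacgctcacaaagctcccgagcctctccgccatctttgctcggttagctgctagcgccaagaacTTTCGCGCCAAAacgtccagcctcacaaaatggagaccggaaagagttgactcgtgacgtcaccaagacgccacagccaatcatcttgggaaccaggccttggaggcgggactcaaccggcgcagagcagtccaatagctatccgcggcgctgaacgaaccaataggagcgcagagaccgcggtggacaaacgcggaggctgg
Mcm6 (chr1:128359656-128359955, minus strand): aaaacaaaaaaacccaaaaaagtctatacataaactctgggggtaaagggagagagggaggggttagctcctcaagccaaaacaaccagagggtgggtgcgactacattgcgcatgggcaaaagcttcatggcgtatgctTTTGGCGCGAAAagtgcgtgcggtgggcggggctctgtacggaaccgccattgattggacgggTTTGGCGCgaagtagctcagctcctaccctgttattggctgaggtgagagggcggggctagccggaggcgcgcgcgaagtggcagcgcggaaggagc
Cdc6 (chr11:98907901-98908200, plus strand): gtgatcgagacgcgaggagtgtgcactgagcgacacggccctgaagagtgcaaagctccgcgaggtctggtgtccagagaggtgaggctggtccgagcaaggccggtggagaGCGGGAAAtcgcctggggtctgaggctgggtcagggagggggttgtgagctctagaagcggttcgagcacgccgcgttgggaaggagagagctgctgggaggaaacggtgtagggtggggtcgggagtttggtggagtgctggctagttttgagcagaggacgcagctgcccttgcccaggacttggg
E2f2 (chr4:136172024-136172323, plus strand): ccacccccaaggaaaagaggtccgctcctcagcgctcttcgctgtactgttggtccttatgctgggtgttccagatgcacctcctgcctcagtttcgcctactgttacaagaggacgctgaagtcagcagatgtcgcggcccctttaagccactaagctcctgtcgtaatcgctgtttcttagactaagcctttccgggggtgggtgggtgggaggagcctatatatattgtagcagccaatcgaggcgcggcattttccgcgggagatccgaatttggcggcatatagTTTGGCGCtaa
Pola2 (chr19:5964157-5964456, minus strand): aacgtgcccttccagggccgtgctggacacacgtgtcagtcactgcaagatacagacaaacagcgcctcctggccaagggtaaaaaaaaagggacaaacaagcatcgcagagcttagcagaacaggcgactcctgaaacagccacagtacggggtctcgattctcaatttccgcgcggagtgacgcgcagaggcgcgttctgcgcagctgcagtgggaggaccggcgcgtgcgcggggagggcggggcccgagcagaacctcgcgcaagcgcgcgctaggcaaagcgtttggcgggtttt

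Of the 42 genes, 34 had a window, and 15 of these, or 44.1%, held at least 1 of the words. The windows of Cdc6, with a match, and E2f1, without one, lie wholly inside the gene as GENCODE annotates it and leave out its start there. The same holds for both windows of Mcm7, of which 1 held matches. It also holds for the matched windows of Lig1 and Uhrf1, which have further windows without a match. Among the genes of the count table with a window the share was 4.88%, and among the other replication factors it was 32.1%. Of the 15, 5 carry more than 1. Mcm6 has 3 matches, of which 2 overlap, and Mcm3, Mcm5, Mcm7 and Rfc3 have 2 each, which overlap in Mcm5. The window shown for Pola2 held none, and neither did those of Ccne1 and Chaf1b, which both fell with LPS. Each of the other 5 windows shown held a match. Those of Mcm2 and E2f1, in the same roles, held none, so the 5 do not stand for their roles. E2f2 had a further window without a match. Members with a match had a median log2 change with LPS of −1.32 in total mRNA (n = 15), and those with a window but no match had −0.96 (n = 19), with overlapping ranges of −2.74 to −0.36 and −2.36 to 0.16. With torin1 against LPS the order was the other way, with medians of −0.32 for members with a match and −0.38 for those without in total mRNA, and of −0.27 and −0.36 in polysome-associated mRNA. These medians are descriptions with no test. A match describes these letters and is not a bound site.

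LPS lowered nearly all of the replication genes. In total mRNA, 41 of 42 fell and 1 rose, while of all 11243 genes 34.2% fell and 32.1% rose (edgeR's quasi-likelihood test, Benjamini-Hochberg adjusted over all genes, FDR 0.25). Their median log2 change was −1.17, against −0.02 for all genes, and in the 3 experiments it was −1.28, −1.10 and −1.07. In polysome-associated mRNA 40 fell and none rose, beside 28.7% and 26.3% of all genes, with a median of −1.13. The 2 without a call were Orc1, which fell when the experiment number was a replicate block (adjusted p = 0.227, edgeR), and Pola2.

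**Figure D1:**
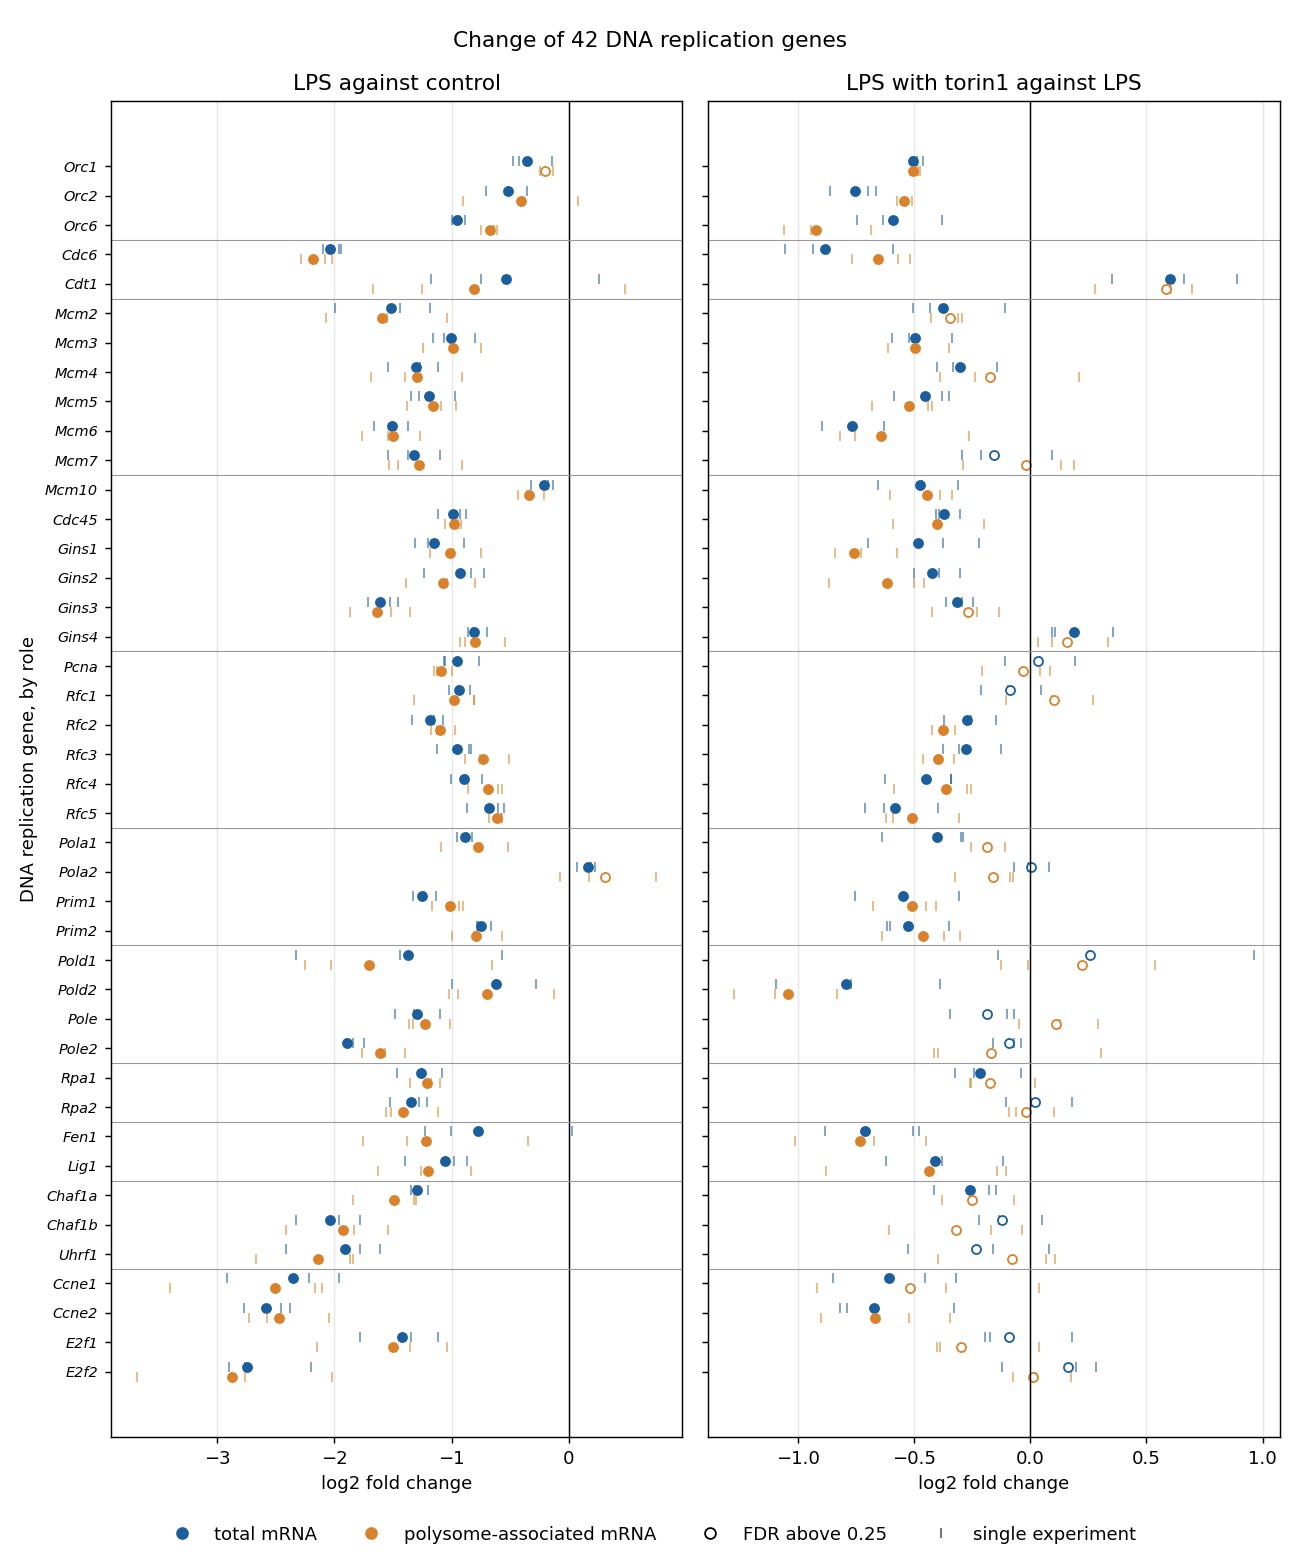
Log2 fold change of each of the 42 genes, by role from origin recognition at the top to cyclin E and E2F at the bottom, for LPS against control and for LPS with torin1 against LPS, with total mRNA in blue and polysome-associated mRNA in orange. Circles are fitted values, open where the FDR exceeded 0.25, and ticks are the 3 experiments; in the left panel all genes but Pola2 lie below 0 in total mRNA.

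The largest falls were in the E2F and cyclin E genes. E2f2, an activating E2F, was at 26.9, 24.6 and 32.3 CPM in total mRNA of control cells and at 3.16, 4.98 and 4.32 with LPS. The groups did not overlap, and the log2 change was −2.74 ± 0.26 (SE, n = 3 per group, adjusted p = 2.09e-05, edgeR). In polysome-associated mRNA it went from 44.7, 30.5 and 43.0 to 3.00, 7.14 and 5.89, a change of −2.88 ± 0.34. Ccne2, one of the E cyclins, went from 64.3, 57.7 and 66.0 CPM to 8.99, 10.1 and 12.3 in total mRNA, again without overlap, with a change of −2.58 ± 0.17. Ccne1, the other E cyclin, changed by −2.36 ± 0.28 in total and −2.50 ± 0.32 in polysome-associated mRNA. E2f1 changed less, by −1.42 ± 0.19 and −1.50 ± 0.25.

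The genes that bind and license origins split. Cdc6, the loader of the helicase, went from 62.1, 57.5 and 60.3 CPM to 14.1, 14.6 and 15.1, with a log2 change of −2.04 ± 0.13 (adjusted p = 1.88e-06, edgeR). Cdt1, its partner, was at 52.8, 35.9 and 48.3 CPM in control cells and at 23.1, 43.0 and 28.4 with LPS. The groups overlapped, since the second experiment had a higher value with LPS than without, and the change of −0.53 ± 0.22 (adjusted p = 0.0784, edgeR) was not called without experiment 1 or without experiment 3, and was −0.97 without experiment 2. In polysome-associated mRNA the same experiment stood apart, with 57.1 CPM in control and 79.6 with LPS, and the change of −0.81 ± 0.42 was called with an adjusted p of 0.175 (edgeR), also not without experiment 1 or without experiment 3, and was −1.49 without experiment 2. In total mRNA, where 34.2% of all genes fell, the 3 origin recognition genes of the 42 fell by less than Cdc6. Orc2, the most abundant of them per kb of exon, changed by −0.52 ± 0.12 and Orc6 by −0.96 ± 0.13, and 29.8% of the exons of Orc2 lie in Nif3l1 on the opposite strand. Orc1 changed by −0.36 ± 0.11. Orc3, Orc4 and Orc5, of the same complex, are outside the 42 and did not all fall. Their mean CPM in total mRNA went from 91.1 to 92.1, from 56.8 to 64.6 and from 55.7 to 31.1.

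All 6 MCM helicase genes fell with LPS in both RNA types, with log2 changes from −1.52 to −1.002 in total mRNA. Of all genes, 34.2% fell in total and 28.7% in polysome-associated mRNA. Mcm6 was at 354, 417 and 402 CPM in control cells and at 111.4, 147 and 155 with LPS. The groups did not overlap, and the change was −1.51 ± 0.16 (adjusted p = 4.07e-05, edgeR). Mcm5 had the highest level per kb of exon of the complex averaged over all libraries, though Mcm6 was above it in total mRNA of control cells and Mcm3 in total mRNA with LPS. It changed by −1.19 ± 0.12 in total and −1.16 ± 0.17 in polysome-associated mRNA. All 6 genes that activate the helicase fell as well, from Gins3 at −1.61 ± 0.11 to Mcm10 at −0.22 ± 0.10 in total mRNA. Mcm10, which acts in the unwinding of the origin, had an adjusted p of 0.108 (edgeR) and was not called without experiment 2 or without experiment 3. The count of Gins2 rests on exons of which 67.3% also lie in Gse1 on the opposite strand, and how the counting treated strands is not spelled out in the sources used here.

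At the fork, Pcna had the highest level per kb of exon of the 42 genes in total mRNA of control cells, at 129.01 ± 5.77 CPM per kb (SD, n = 3). It went from 294, 321 and 313 CPM to 140.4, 189 and 150.1 with LPS, with no overlap and a log2 change of −0.95 ± 0.13 (adjusted p = 1.67e-04, edgeR). Pcna has 2 named pseudogenes in the annotation, so that some reads could be shared. All 5 clamp loader genes Rfc1 to Rfc5 fell in both RNA types, beside 34.2% of all genes in total and 28.7% in polysome-associated mRNA. Rpa1, which coats single-stranded DNA, changed by −1.26 ± 0.13 and Lig1, the ligase that seals Okazaki fragments, by −1.06 ± 0.20. Fen1, the flap nuclease, was at 13.5, 8.06 and 11.2 CPM in control cells and at 5.47, 8.22 and 5.34 with LPS. The groups overlapped, since the second experiment showed no fall, and the change of −0.78 ± 0.23 was −1.19 without experiment 2 and −0.49 without experiment 1. Of the exons of Fen1, 78.8% lie in an antisense gene, Gm10143.

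The polymerase genes held the exception. Of the 4 genes of polymerase alpha-primase, Pola1, Prim1 and Prim2 fell, beside 34.2% of all genes in total and 28.7% in polysome-associated mRNA. Pola2, the second subunit, was at 67.6, 70.6 and 67.8 CPM in total mRNA of control cells and at 76.9, 82.5 and 71.1 with LPS. All 3 LPS values lay above all 3 control values, and the change of 0.16 ± 0.11 was called with an adjusted p of 0.236 (edgeR). This call was lost when any experiment was left out and at an FDR of 0.05, and with libraries scaled to their totals the change was −0.20, above the median of all genes at −0.38. In polysome-associated mRNA Pola2 had 100.7, 82.2 and 89.1 CPM against 114, 138 and 84.7, which overlapped, with 0.31 ± 0.22 and an adjusted p of 0.314 (edgeR). Pold1, the catalytic subunit of polymerase delta, had a fall that varied over the experiments. It went from 61.3, 47.4 and 66.3 CPM to 11.8, 31.7 and 24.1 in total mRNA, with no overlap and a change of −1.37 ± 0.30. The experiments gave −2.33, −0.57 and −1.44. Pold2, its partner, changed by −0.62 ± 0.15.

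Behind the fork, the chromatin genes fell with a median of −1.91 in total mRNA. Chaf1b, of the chromatin assembly factor, changed by −2.04 ± 0.19. Uhrf1, which passes DNA methylation to the new strand, went from 222, 198 and 251 CPM to 41.3, 64.6 and 72.7 with no overlap, and its change was −1.91 ± 0.20. Chaf1a changed by −1.29 ± 0.13, and 52.5% of its exons lie in Ubxn6 on the opposite strand.

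**Figure D2:**
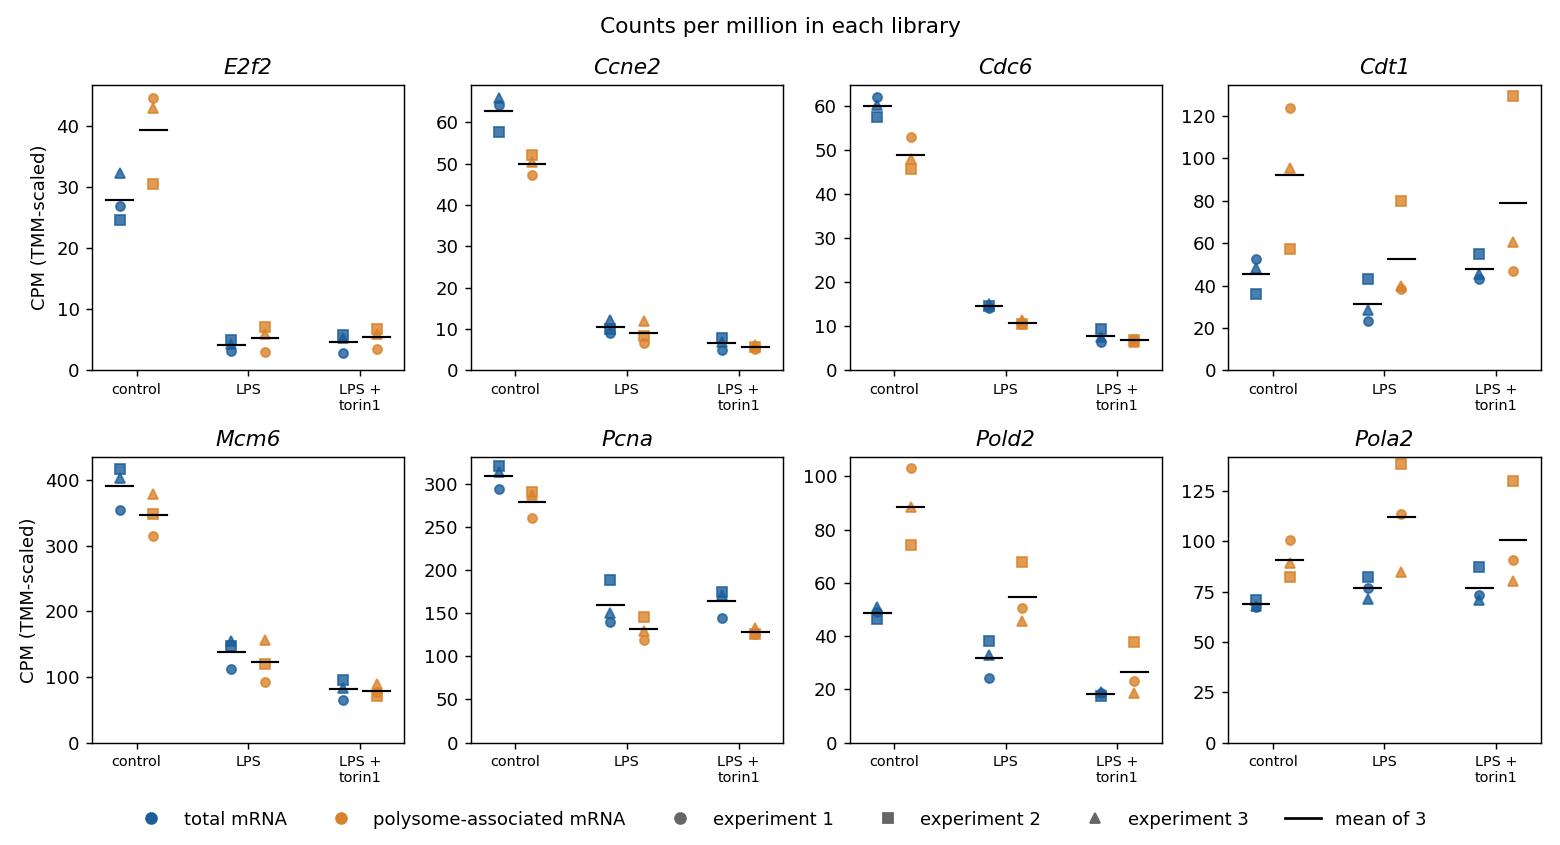
TMM-scaled CPM on linear axes from 0 in each of the 18 libraries for 8 genes, with total mRNA in blue, polysome-associated mRNA in orange, a marker for each experiment and a black line at the mean of 3. E2f2, Ccne2 and Cdc6 are low with LPS in every library, Cdt1 shows experiment 2 apart from the others, and the LPS values of Pola2 lie above its control values in total mRNA and overlap them in polysome-associated mRNA.

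With torin1 before LPS, most of these genes were lower still, by less. In total mRNA 28 of 42 fell and 2 rose against LPS, beside 26.2% and 27.3% of all genes, with a median log2 change of −0.37 against 0.00 for all genes and −0.32, −0.31 and −0.38 in the 3 experiments. In polysome-associated mRNA 21 fell and none rose, beside 18.1% and 20.2%, with a median of −0.37. These counts moved with the experiments used. Without experiment 3, 19 genes fell in total mRNA (16.6% of all genes) and 3 in polysome-associated mRNA (4.22%), and without experiment 1, 11 fell in polysome-associated mRNA (6.40%). The fitted change was below 0 for 36 of the 42 genes in polysome-associated mRNA with all experiments, and for 32 without experiment 3. The comparison shares its LPS libraries with the comparison of LPS and control, so the values are given side by side.

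Cdc6 was among the genes with the largest change in total mRNA under torin1. It was at 6.51, 9.51 and 7.67 CPM, against 14.1, 14.6 and 15.1 with LPS alone. The groups did not overlap, and the log2 change was −0.88 ± 0.13 (adjusted p = 0.00126, edgeR). In polysome-associated mRNA its change was −0.66 ± 0.14, not called without experiment 3. Pold2 went from 24.3, 38.1 and 32.7 CPM with LPS to 18.4, 17.6 and 18.95 with torin1, with no overlap and a change of −0.79 ± 0.15 (adjusted p = 0.00352, edgeR). In polysome-associated mRNA it had the largest change of the 42, −1.04 ± 0.26, from 50.5, 67.9 and 45.8 CPM to 23.3, 37.9 and 18.6. Mcm6 went from 111.4, 147 and 155 CPM to 65.3, 94.7 and 82.9 in total mRNA, a change of −0.77 ± 0.16, and by −0.64 ± 0.20 in polysome-associated mRNA, a call lost without experiment 3.

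All 3 origin recognition genes of the 42 fell with torin1 in total mRNA, with a median of −0.59, where 26.2% of all genes fell. They also fell in polysome-associated mRNA, where 18.1% of all genes did, but the calls of Orc1 and Orc2 there were lost without experiment 1 or without experiment 3. Orc2 went from 96.0, 75.2 and 75.6 CPM to 52.6, 47.3 and 46.4 with no overlap, and changed by −0.76 ± 0.12. Orc6 changed by −0.59 ± 0.14 in total and by −0.92 ± 0.18 in polysome-associated mRNA, from 25.4, 28.3 and 33.9 CPM to 15.6, 13.3 and 17.4 there. Orc1, whose change with LPS was the smallest of the 3, changed by −0.50 ± 0.11 in total and −0.50 ± 0.14 in polysome-associated mRNA. Gins1, of the GINS complex, changed by −0.48 ± 0.18 in total mRNA, or −0.32 without experiment 2, and by −0.76 ± 0.19 in polysome-associated mRNA. Orc6, Gins1 and Pold2 were the 3 genes whose polysome-associated fall was called under every alternative. Mcm10 changed by −0.48 ± 0.10 in total mRNA.

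Not all genes had a call with torin1 in total mRNA, where 26.2% of all genes fell and 27.3% rose. Pcna and E2f2 had none, while the abundant Mcm3, Mcm5 and Mcm6 and the strongly lowered Cdc6 and Ccne2 were called lower. Pcna was at 145, 175 and 171 CPM with torin1, overlapping its LPS values, with a change of 0.03 ± 0.13 (adjusted p = 0.865, edgeR). Of the 4 polymerase delta and epsilon genes, Pold2 alone was called in total mRNA. Of the 3 chromatin genes, Chaf1a alone was called, at −0.26 ± 0.13, and not without experiment 3, where the change was −0.17. E2f2, whose LPS values were the lowest, had 2.86, 5.78 and 5.37 CPM with torin1 and a change of 0.16 ± 0.26 (adjusted p = 0.677, edgeR). Its neighbour in the role, Ccne2, fell by 0.67 on the log2 scale in both RNA types, with an SE of 0.17 in total and 0.20 in polysome-associated mRNA, the second call being lost without experiment 3.

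The 2 genes that rose with torin1 in total mRNA were Cdt1 and Gins4. Cdt1 was at 43.2, 55.0 and 45.3 CPM with torin1 and LPS, and was higher than with LPS alone in each of the 3 experiments. Its lowest value lay just above the LPS values of 23.1, 43.0 and 28.4, and the change was 0.60 ± 0.22 (adjusted p = 0.0707, edgeR), a call lost without experiment 3. Against control its change was 0.07 ± 0.22 (adjusted p = 0.827, edgeR). In polysome-associated mRNA Cdt1 was at 46.8, 129.3 and 60.6 CPM, a change of 0.58 ± 0.42 that was not called (adjusted p = 0.393, edgeR). Gins4, of the GINS complex, was at 23.7, 24.3 and 26.6 CPM, against 22.1, 22.5 and 20.7 with LPS. The groups did not overlap, the change was 0.19 ± 0.10 (adjusted p = 0.185, edgeR), and the call was lost with DESeq2, with only the 2 treatments in the model and without experiment 3, where the change was 0.10.

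Set against control, cells with LPS and torin1 had 40 of 42 genes lower and 1 higher in total mRNA, beside 33.6% and 33.1% of all genes, and 40 lower and none higher in polysome-associated mRNA, beside 29.8% and 28.5%. The medians were −1.48 in both. The higher gene was Pola2, at 0.17 ± 0.11 (adjusted p = 0.225, edgeR), and this call was lost when any experiment was left out, with a change of 0.09 without experiment 2. It was also lost with library totals only and at an FDR of 0.05, and its sign turned in 1 of the 10 alternatives. Ccne2 had the largest change in total mRNA, −3.26 ± 0.18, and Cdc6 changed by −2.92 ± 0.14.

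Translation efficiency, the change of polysome-associated mRNA beyond that of total mRNA, was not called for any of the 42 genes. It was tested in edgeR as the difference of the treatment effect between RNA types, with a fold of at least 1.2. It called 0 of 11243 genes, or 0%, for LPS against control, 0% for torin1 with LPS against LPS and 0% for torin1 with LPS against control. The study used another method, anota2seq, with the same adjusted p and fold, and reported altered efficiency for a subset of mRNAs after LPS. In the edgeR comparisons none of the 42 had an unadjusted p under 0.05, and 44, 108 and 148 of all genes did. Among 11243 genes without any change far more would fall under 0.05. These p-values thus run high, and the 0 among the 42 says little about them. With the lysate as a replicate block, edgeR called 0, 25 and 3 of all genes, DESeq2 called 1, 13 and 1 and the analysis of partial variance 2, 3 and 2, and in each the count among the 42 was 0. The fitted log2 efficiency changes of the 42 lay between −0.44 and 0.28 for LPS, with a median of 0.01, and between −0.35 and 0.27 for torin1 against LPS, with a median of −0.02. Their SEs for LPS lay between 0.14 and 0.53 with a median of 0.24, in a model that leaves out the shared lysates. With the lysate as a replicate block the median SE was 0.16, and changes of that size were not detectable for a typical member. Without experiment 2, Cdt1 (−0.85, edgeR adjusted p = 0.194) and Pold2 (−0.79, edgeR adjusted p = 0.212) were called lower for torin1 with LPS against control, and 453 of all genes were called.

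**Figure D3:**
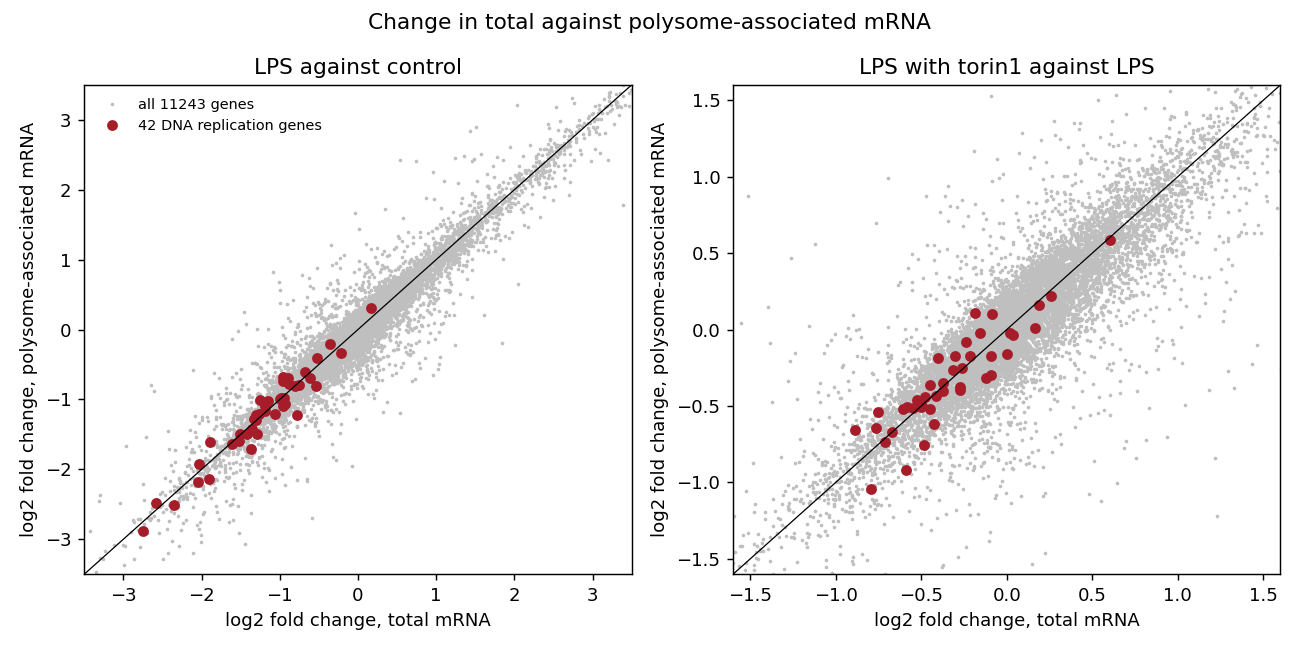
Log2 fold change in total mRNA on the x axis and in polysome-associated mRNA on the y axis, for LPS against control and for LPS with torin1 against LPS, with the 42 genes in red over all genes in grey and a line where both are equal (genes beyond the axes are not drawn). The 42 genes lie along the line, with a largest gap between the 2 RNA types of 0.44 for LPS and 0.33 for torin1.

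Over the 42 genes, the changes in total and polysome-associated mRNA had a Pearson correlation of 0.97 for LPS and 0.90 for torin1 against LPS. This is a description across genes, which are not independent replicates, and the libraries of the RNA types came from the same lysates.

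Replication factors outside the 42 moved with them in part. Of 34 further fork and origin factors, 26 fell and 2 rose with LPS in total mRNA, beside 34.2% and 32.1% of all genes, with a median of −0.80. Wdhd1, a fork scaffold, changed by −2.57 ± 0.21, Gmnn, the inhibitor of CDT1, by −2.35 ± 0.11 and Dscc1, of an alternative clamp loader, by −2.15 ± 0.19. Pold4, a small subunit of polymerase delta, rose by 0.51 ± 0.15 and Mcmbp, an MCM binding protein, by 0.14 ± 0.09. Gmnn was at 62.2, 58.6 and 66.4 CPM in control cells, 11.2, 12.3 and 13.2 with LPS and 12.7, 14.1 and 14.6 with torin1 and LPS, with no call for torin1 (0.18 ± 0.11). The kinase Cdc7 changed by −1.35 ± 0.17 with LPS and its activator Dbf4 by −0.45 ± 0.11.

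Among 26 regulators of the step before replication, 15 fell and 5 rose with LPS in total mRNA, or 57.7% and 19.2%, beside 34.2% and 32.1% of all genes. The repressor E2Fs E2f7 and E2f8 changed by −2.53 ± 0.24 and −2.55 ± 0.23, and Fbxo5, an inhibitor of the anaphase-promoting complex, by −2.27 ± 0.13. Myc rose by 3.42 ± 0.22, Cdkn1a, the inhibitor of cyclin-dependent kinases, by 1.52 ± 0.24 and Cdk6 by 0.36 ± 0.12. Cdkn1a went from 57.2, 76.1 and 83.5 CPM to 170.0, 228 and 224 with LPS and to 57.6, 106.1 and 65.0 with torin1 and LPS. With torin1 it fell against LPS by 1.44 on the log2 scale (SE 0.24, adjusted p = 0.00215, edgeR). E2f7 was at 2.24, 3.27 and 4.48 CPM with LPS and at 5.46, 6.96 and 7.32 with torin1 and LPS, a rise of 0.98 ± 0.24 (adjusted p = 0.0118, edgeR). Ccnd1, which encodes cyclin D1, had 128, 438 and 276 CPM with LPS, spread around its control values of 295, 310.4 and 289.9, and had no call with LPS.

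Mitotic genes, which act later in the cycle, also fell with LPS. All 20 of the list fell in total mRNA, with a median of −0.83, beside 34.2% of all genes, and 16 of 20 in polysome-associated mRNA, beside 28.7%. Mybl2 changed by −1.95 ± 0.25, Foxm1 by −1.31 ± 0.20 and Aurkb by −1.18 ± 0.10. With torin1 against LPS, 7 of them rose and 3 fell in total mRNA, or 35% and 15%, with a median of 0.09. Of all genes 27.3% rose and 26.2% fell, and with the replicate block 8 of the 20 rose and 6 fell. In polysome-associated mRNA 8 rose and 2 fell, beside 20.2% and 18.1% of all genes, with a median of 0.26, and with the replicate block 8 rose and 3 fell. The median of the 42 replication genes was −0.37 in both RNA types. The difference between the lists was not tested.

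**Figure D4:**
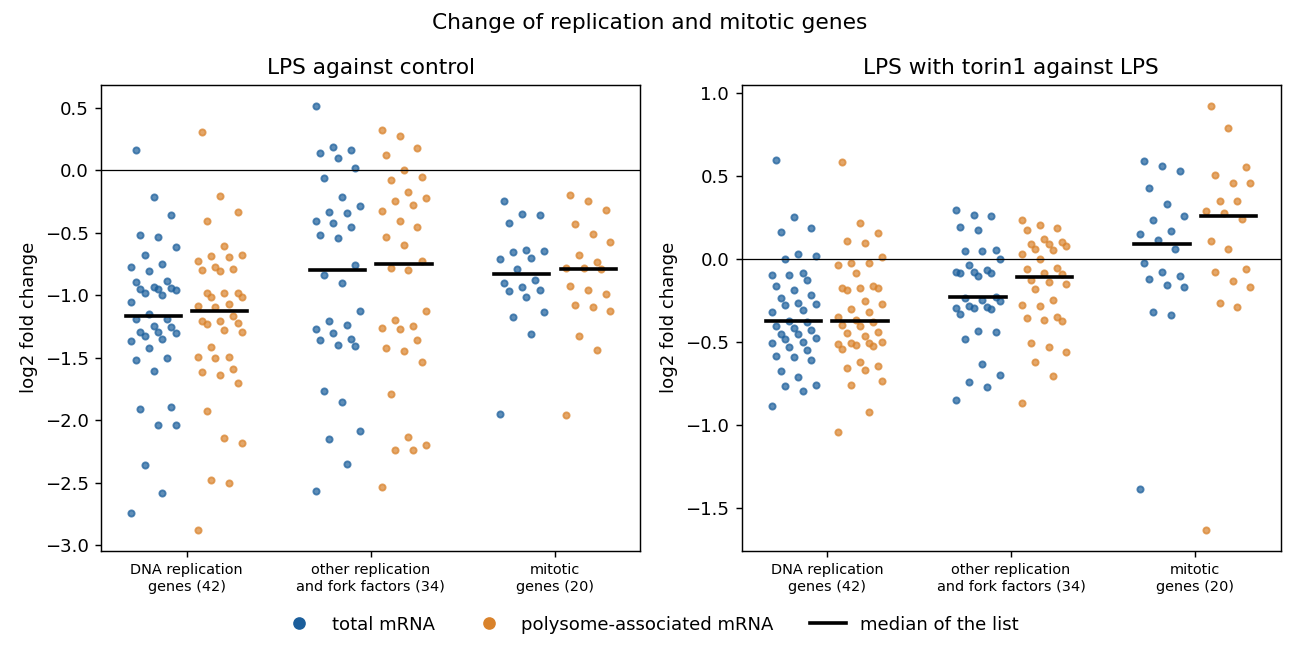
Log2 fold change of single genes in the 42 DNA replication genes, 34 other replication and fork factors and 20 mitotic genes, for LPS against control and for LPS with torin1 against LPS, with total mRNA in blue, polysome-associated mRNA in orange and the median of each list as a black line. All 3 lists have medians below 0 with LPS, and with torin1 the median is −0.37 for the replication genes and 0.09 for the mitotic genes in total mRNA.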

How the data were processed

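RAW264.7 libraries were grouped by treatment, RNA type and experiment number per the labels. The authors removed ribosomal RNA before sequencing, used Hisat2 for alignment (GRCm38) and featureCounts for read summaries, and kept protein-coding genes without a 0 in any library. The deposited values are raw counts, with no normalization. All 18 columns were used.

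The tests ran under R 4.3.3. The main one was edgeR 4.0.16 (quasi-likelihood, robust, TMM), with the 9 libraries of an RNA type in one model and Benjamini-Hochberg adjustment over 11243 genes. The FDR of 0.25, and for translation efficiency the fold of 1.2, follow the study's methods. Translation efficiency was the interaction over 18 libraries. Alternatives used DESeq2 1.42.0 and an analysis of partial variance with limma 3.58.1 (log2 CPM, pseudocount 0.5), since anota2seq was not used here. The others were RLE factors, library totals, a mean count of at least 50, an FDR of 0.05, only the 2 treatments compared, the replicate block and each experiment left out. All tests were run on simulated counts with large changes in the LPS libraries alone. The simulated libraries were independent, with no shared lysates or experiments. This does not check the replicate blocks or efficiency changes as small as those here.

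The members and lists were chosen with earlier results of these data known. Named members had the 3 largest rises and falls past the threshold with the same sign in all experiments, went against their role, or had the highest count per kb of their role. From other lists the 3 largest rises and falls in total mRNA with LPS and 8 fixed genes were named. Further members were named after their values were seen, to describe their role. Overlaps and lengths came from a GENCODE annotation of GRCm38, and windows from RefSeq.

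Same-numbered libraries deviated together in all 9 pairs of total mRNA (r from 0.13 to 0.54) and in total and polysome-associated mRNA of all 9 lysates (0.48 to 0.78), but not in every pair of polysome-associated mRNA (−0.14 to 0.84). The pairing comes from the experiment number and the shared lysates.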

Additional observations from a re-analysis of the deposited data

How the results depend on the processing

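With LPS, 39 of the 42 calls in total mRNA held under all 10 alternatives, as did 36 of the 40 on polysomes. For torin1 against control 40 of 41 and 40 of 40 held. For torin1 against LPS, 17 of 30 calls held in total mRNA, but on polysomes 3 of 21 did. At an FDR of 0.05 those torin1 counts were 17 and 7. Leaving out single experiments gave counts from 19 to 32 in total mRNA, and from 3 to 23 on polysomes. For translation efficiency with torin1 against control this range was 0 to 2, where the 2 were Cdt1 and Pold2. Under the replicate block, which pairs libraries by experiment, the counts for LPS against control, torin1 against LPS and torin1 against control were 42, 31 and 41 for total mRNA, then 41, 25 and 40 for polysomes, and 0 for each efficiency comparison. With library totals only, Pola2 with LPS turned to −0.20 in total mRNA (adjusted p = 0.0997, edgeR) and to −0.045 on polysomes (adjusted p = 0.88, edgeR), while the median of all genes moved to −0.38. The medians of the 42 in total mRNA were then −1.53 for LPS, −0.31 for torin1 against LPS and −1.78 for torin1 against control. Fits without 1 experiment rest on fewer libraries, and the cause of the differences between experiments was not tested.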
